A study of Mus musculus with 3 samples.

Results

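The cells described here are haemoglobin-filled erythroid cells found among whole-kidney cells: droplet barcodes with at least 200 genes detected and at most 50% of unique molecular identifiers (UMIs) from mitochondrial genes, chosen by their globin values, with the Hba- and Hbb- genes at 10% of UMIs or more. The rule found 319 such barcodes among 51795 that passed the first 2 conditions, out of 60420 deposited. Kidneys came from male mice 28 weeks old in 3 groups: lean db/m mice fed a control diet free of fructose, db/db mice fed that same diet, and db/db mice whose diet held 60% fructose, each diet given from 8 weeks of age for 20 weeks. In db/db mice both copies of the leptin receptor gene fail to give its signalling form, and obesity and diabetes follow, whereas 1 normal copy keeps db/m mice lean. Each group gave 1 library, and how many mice stood behind a library is not known here. With 1 library per group, differences between libraries were not tested, and their 95% intervals cover counting error only.

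Red cells are made in bone marrow and, in adult mice, in spleen, and reach an organ such as the kidney with the blood. A reticulocyte, the last stage before the mature red cell, has lost its nucleus but keeps globin messenger RNA and a shrinking set of other transcripts while it clears its mitochondria and ribosomes by autophagy and the ubiquitin system. Haem, the iron-holding group of haemoglobin, is built by a chain of enzymes that starts with Alas2, the erythroid form of 5-aminolevulinate synthase, and ends with ferrochelatase, Fech.

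The db/m library held 125 erythroid barcodes, the db/db control library 106 and the db/db fructose library 88, and values below keep this order of libraries unless they name one. These were 1.11% (95% exact Clopper-Pearson interval 0.925 to 1.32), 0.4996% (0.409 to 0.604) and 0.455% (0.365 to 0.561) of the barcodes kept. The db/m share lay above both db/db shares, whose intervals overlapped. With at least 500 genes required the shares were 0.286% (0.189 to 0.416), 0.256% (0.187 to 0.342) and 0.116% (0.0708 to 0.179), and the db/m and db/db control intervals overlapped. The kidneys had been perfused and the suspensions treated with red cell lysis buffer before loading, steps that can set these shares, and their part was not tested. No erythroid barcode was shared between libraries. The erythroid barcodes held 230465, 226895 and 144118 UMIs, with medians per barcode of 1747, 1912 and 1304.5 UMIs and 345, 434.5 and 329.5 genes. Other kept barcodes had medians of 1672, 1640 and 1566 UMIs and 767, 709 and 829 genes. Without the globins, the median erythroid barcode held 861, 1207.5 and 730.5 UMIs, fewer than the others, so the numbers of genes were not compared at 1 depth.

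Globin transcripts, the values by which the cells were chosen, made up 43.6%, 32.3% and 41.3% of the erythroid UMIs, against 0.00631%, 0.00455% and 0.00648% in the other barcodes, of which 3.60%, 3.80% and 4.95% held at least 1 globin UMI. The median erythroid barcode held 49.5% globin (range 10.8 to 65.2%), 34.3% (10.6 to 65.6%) and 41.1% (10.8 to 68.7%). All 3 ranges overlapped almost wholly, and the db/db control barcodes sat lower within them. Just inside the threshold, from 10 to 12% globin, lay 1, 5 and 1 barcodes, which together held 3, 23 and 1 Alas2 UMIs. Just outside, from 8 to 10%, lay 3, 1 and 2 barcodes, which together held 5, 0 and 0.

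**Figure D1:**
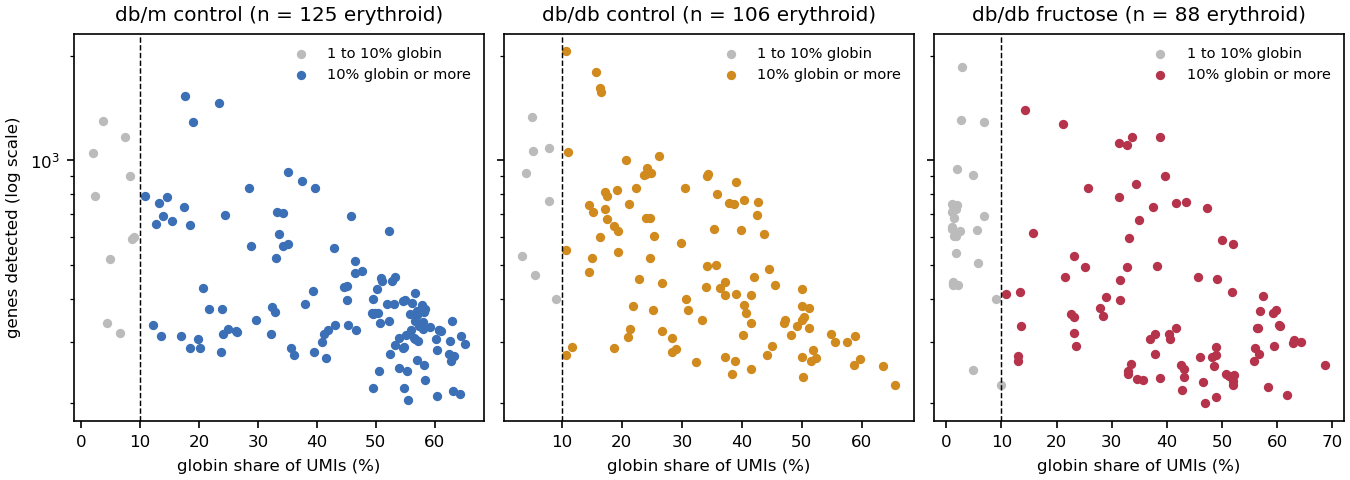
Each point is 1 barcode that passed the filters and held at least 1% globin UMIs, with its globin share (x axis, percent of UMIs) and the genes detected in it (y axis, log scale), in 1 panel per library; the dashed line marks the 10% rule. Coloured points are the 125, 106 and 88 erythroid barcodes, and those with more globin had fewer genes.

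The globins were those of the adult. Hba-a1 gave 31998, 23870 and 20688 UMIs, and its near-copy Hba-a2 gave 25698, 17658 and 14616. Hbb-bs gave 37143, 27224 and 21064 UMIs, and Hbb-bt gave 5713, 4584 and 3153. Alpha chains thus made up 57.4%, 56.6% and 59.3% of globin UMIs. The split within a pair is uncertain, since the transcripts of Hba-a1 and Hba-a2 were identical at 537 of 538 aligned bases and those of Hbb-bs and Hbb-bt at 92.8% of 624 aligned positions. The genes lie at chr11:32283511-32284465, chr11:32296489-32297298, chr7:103826534-103828096 and chr7:103812524-103813996 (GRCm38, GENCODE M21), in the order Hba-a1, Hba-a2, Hbb-bs and Hbb-bt. The embryonic genes Hba-x, Hbb-y, Hbb-bh1 and Hbb-bh2 had 0 UMIs in the erythroid barcodes of all 3 libraries.

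Outside the globins, Alas2 was the most abundant of the erythroid-enriched transcripts defined below. It gave 2401, 1518 and 1252 UMIs in the erythroid barcodes and 27, 26 and 46 UMIs in all other barcodes together. In counts per 1000000 non-globin UMIs (CPM), the scale of every level below, this was 18482, 9885 and 14800 against 1.07, 0.622 and 1.17. At least 1 Alas2 UMI was found in 120 of 125, 105 of 106 and 82 of 88 erythroid barcodes (96.0%, 99.1% and 93.2%) and in 0.207%, 0.114% and 0.182% of the others. With every barcode thinned to 200 non-globin UMIs, none being shallower, the shares were 80.8%, 74.5% and 79.5% against 0.027%, 0.0142% and 0.0156%. The median barcode held 20, 14.5 and 12 Alas2 UMIs, and the highest 53, 34 and 46.

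The promoters of 3 genes that the results turn on are shown from RefSeq (GRCm38.p6), as the 250 bases before and 50 after the annotated start, 5′ to 3′ on the gene's strand. Alas2 leads the erythroid transcripts, Isg20 is a further transcript almost restricted to them, and Apol11b was low in 1 of the 3 libraries. Capitals mark AGATAA on either strand, 1 form of the core recognised by the GATA family of blood transcription factors. Other forms of that core were neither marked nor counted. The windows are chrX:150547167-150547466 on the plus strand for Alas2, chr7:78913985-78914284 on the plus strand for the last of 3 annotated starts of Isg20, and chr15:77643237-77643536 on the minus strand for Apol11b.
Alas2: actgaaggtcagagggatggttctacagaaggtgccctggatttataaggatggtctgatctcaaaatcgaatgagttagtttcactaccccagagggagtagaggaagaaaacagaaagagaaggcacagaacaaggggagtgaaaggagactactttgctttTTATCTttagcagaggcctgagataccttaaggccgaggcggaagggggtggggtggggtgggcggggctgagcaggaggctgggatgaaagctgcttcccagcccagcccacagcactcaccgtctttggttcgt
Isg20: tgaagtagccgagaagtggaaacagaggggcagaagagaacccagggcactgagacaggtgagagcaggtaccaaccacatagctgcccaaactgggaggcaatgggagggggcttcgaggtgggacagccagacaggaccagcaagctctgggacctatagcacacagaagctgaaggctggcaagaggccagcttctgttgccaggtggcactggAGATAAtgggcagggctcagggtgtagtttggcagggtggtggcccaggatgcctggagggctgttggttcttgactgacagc
Apol11b: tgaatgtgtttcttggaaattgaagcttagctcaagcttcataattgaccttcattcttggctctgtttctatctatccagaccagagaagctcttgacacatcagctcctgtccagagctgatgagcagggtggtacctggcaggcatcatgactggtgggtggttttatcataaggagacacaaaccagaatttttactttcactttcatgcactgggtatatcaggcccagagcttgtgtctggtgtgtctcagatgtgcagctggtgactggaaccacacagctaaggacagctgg
The Alas2 match began 86 bases before the start, read on the opposite strand, and the Isg20 match 33 bases before it. Of the 31 erythroid-enriched genes defined below, 22 had a promoter in the table, with 28 starts, and 2 of these starts (7.14%) held AGATAA on either strand, those of Alas2 and Isg20. Over all 32851 starts the share was 11.2%. The letters CCACACCC on either strand, a form of the CACCC box bound by Klf1, were in 1 of the 28 windows, that of Gda, and in 3.56% of all. TATAAA on the gene's strand was in 1 of the 28, that of Oaz1, and in 8.32% of all. The 3 motifs overlap one another by at most 1 base, and a match describes letters only.

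To ask which other transcripts set the erythroid barcodes apart, non-globin UMIs were summed per library over erythroid and over other kept barcodes and compared with edgeR's quasi-likelihood test, with the library as a block. Of 13699 genes tested, 213 (1.55%) were higher in erythroid barcodes and 102 (0.745%) lower at a Benjamini-Hochberg adjusted p under 0.05. These counts were 169 and 568 with library totals as the only scaling and 247 and 61 with median-of-ratios factors, so the number of lower genes changed with the scaling, and the median log2 difference over all genes was -0.34, -0.67 and -0.19 in the 3 fits. Without the db/m, db/db control or db/db fructose library the fit gave 148 and 54, 202 and 60, or 170 and 56 calls. Of the non-globin erythroid markers 11 were tested and 10 were higher, among them Alas2, Slc4a1, Slc25a37, Tspan33, Car2, Bpgm, Mkrn1 and Fech. Epb42, which did not pass, had 1 UMI in each library. A separate set of 31 genes, called the erythroid-enriched set here, passed the test, was at least 10-fold higher in every library and had at least 20 UMIs in each. It held 8.77%, 4.75% and 7.40% of the non-globin UMIs of erythroid barcodes against 0.184%, 0.139% and 0.178% of those of other barcodes.

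The 12 genes with the highest fitted difference among abundant transcripts included Alas2, Apol11b, Ube2l6, Isg20, Tent5c, Bpgm, Ube2c, Mkrn1, Gda, Ptp4a3 and Smox, with log2 differences from 14.19 to 5.89. Ube2l6, an enzyme that loads the ubiquitin-like protein ISG15, stood at 5342, 3009 and 5331 CPM against 4.07, 2.75 and 4.34 in other barcodes. Tent5c, a poly(A) polymerase that lengthens mRNA tails, stood at 3056, 1862 and 2281 CPM against 3.72, 4.02 and 3.73. Isg20, a 3′ exonuclease, stood at 2810, 1270 and 2293 against 1.82, 1.31 and 2.68. Bpgm makes 2,3-bisphosphoglycerate, which lowers the oxygen affinity of haemoglobin, and stood at 6012, 3276 and 5343 against 18.5, 15.0 and 17.7. For each of these 4 genes the lowest erythroid level was over 100 times the highest other level, and in each the db/db control library was the lowest of the 3.

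**Figure D2:**
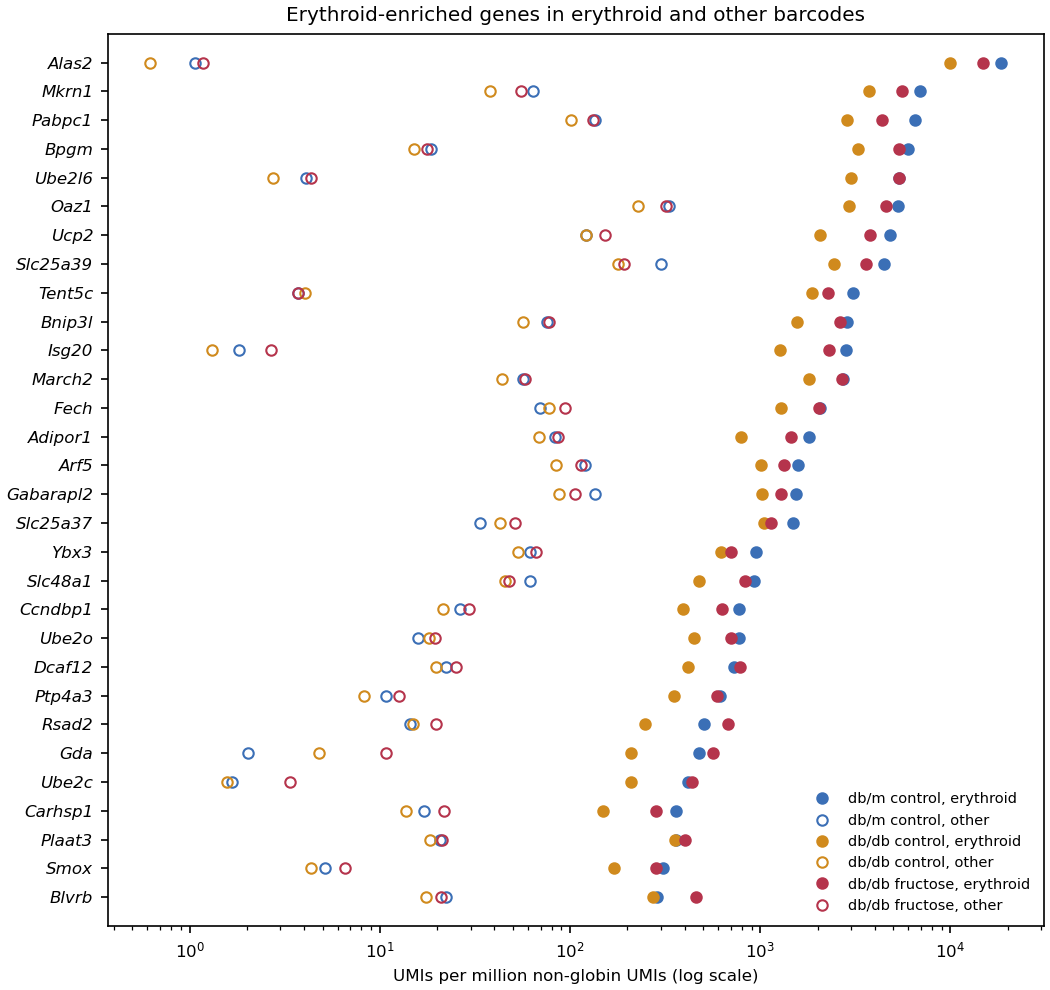
Level of 30 of the 31 erythroid-enriched genes (x axis, CPM, log scale) in erythroid barcodes (filled) and other barcodes (open) of the 3 libraries. Alas2 stands highest at 18482, 9885 and 14800, and for all 30 genes the filled db/db control point lies left of the other filled points.

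At 1 depth the differences stood as well. With each barcode thinned to 200 non-globin UMIs, Ube2l6 was found in 53.6%, 44.3% and 59.1% of erythroid barcodes and in 0.0809%, 0.0474% and 0.0728% of others. Mkrn1 was found in 52.0%, 50% and 52.3% against 1.11%, 0.687% and 0.988%, and Bpgm in 48.0%, 41.5% and 38.6% against 0.386%, 0.232% and 0.364%. The Mkrn1 share thus stood within 3 percentage points in the 3 libraries. The proximal tubule marker Slc34a1, the phosphate transporter of that segment, was found in 27.2%, 26.4% and 30.7% of erythroid barcodes and in 40.8%, 38.3% and 49.4% of others.

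Of the 8 enzymes of haem synthesis 3 were higher in erythroid barcodes and none lower, beside 1.55% and 0.745% of all genes tested. Besides Alas2 these were Fech, which inserts the iron, and Urod. Fech stood at 2055, 1289 and 2033 CPM against 69.6, 77.1 and 94.1 in other barcodes (log2 difference 4.80, edgeR adjusted p = 2.88e-182). Urod had 14, 7 and 5 UMIs in erythroid barcodes (log2 difference 1.65, edgeR adjusted p = 0.0030), and did not pass without the db/m library. The other 5 enzymes, among them Alad, Uros, Cpox and Ppox, did not pass, and had at most 10 UMIs in any library. The first and the last step thus had the most UMIs of the 8. The list's median log2 level ratio was -0.17 beside -0.41 over all genes tested, with a sum of 0 set to 3 UMIs.

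Of 12 transporters and partners of haem synthesis 3 were higher: the iron importer of mitochondria Slc25a37, the carrier Slc25a39 and Fam210b. Slc25a37, mitoferrin-1, had 192, 160 and 96 UMIs, 1478, 1042 and 1135 CPM, against 33.6, 43.0 and 51.1 in other barcodes. Slc25a39, which carries glutathione into mitochondria, stood at 4457, 2429 and 3582 CPM against 299, 179 and 192. Outside that list, Slc48a1, which carries haem out of endosomes and lysosomes, belonged to the enriched set with 120, 73 and 70 UMIs, 924, 475 and 827 CPM, against 61.3, 45.5 and 47.5. In iron handling 4 of 14 tested genes were higher, Ftl1 and Fth1 of ferritin, the ferritin autophagy receptor Ncoa4 and the iron-sulphur protein Glrx5, and none lower. Ftl1 stood at 6335, 2872 and 5780 CPM against 1264, 822 and 809, though its processed copy Ftl1-ps1, with 20, 6 and 16 UMIs, may share reads with it. The transferrin receptor Tfrc, which brings iron into red cell precursors, had only 7, 7 and 4 UMIs and did not pass the test (log2 difference 0.32, edgeR adjusted p = 0.89).

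Of the genes of the red cell membrane and its skeleton, 29 in the list and 23 tested, 8 were higher and none lower, among them Slc4a1, Sptb, Epb41, Mpp1, Kel and Tspan33. The list's median log2 level ratio was 1.93. Kel did not pass when any 1 library was left out, nor Sptb without db/m. Epb41, protein 4.1, was the most abundant at 1070, 853 and 1182 CPM against 186, 233 and 286. Rhag and Hemgn, which mark earlier erythroid stages as well, had 0 UMIs in all 3 libraries, which allows up to 23.1, 19.5 and 35.5 CPM.

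Of 15 tested transcription factors of the red cell lineage 2 were higher, Lmo2 and E2f2, and 1 lower, Zbtb7a. E2f2 had 23, 9 and 17 UMIs against 74, 63 and 121 in all other barcodes (log2 difference 6.14, edgeR adjusted p = 1.85e-36). Klf1, the main activator of adult beta globin, had 0 UMIs in the erythroid barcodes of every library. Zbtb7a did not pass without the db/db control or the db/db fructose library. Among erythropoietin response and survival genes, Pim1 and Bcl2l1 were higher, 2 of 13 tested, and none lower. Pim1 did not pass when any 1 library was left out, whereas Bcl2l1, Lmo2 and E2f2 passed in each such fit.

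The list of organelle clearance and the ubiquitin system had the most calls. List members were chosen with earlier results of these data known, so the numbers of calls do not rank the lists. Of 36 genes tested 18 were higher and none lower, beside 1.55% and 0.745% of all genes tested, with a median log2 level ratio of 0.64. Mkrn1, a ubiquitin ligase that also binds RNA, stood at 6905, 3738 and 5556 CPM against 64.2, 38.0 and 55.2 (edgeR adjusted p = 5.15e-305). Bnip3l, the receptor through which reticulocytes remove mitochondria, had 372, 239 and 221 UMIs, 2863, 1556 and 2612 CPM, against 75.3, 56.6 and 77.5 (edgeR adjusted p = 2.78e-218). March2, a membrane-bound ubiquitin ligase, stood at 2717, 1797 and 2683 against 56.6, 44.1 and 58.1. The autophagy genes Gabarapl2 and Map1lc3b, the ubiquitin gene Ubb and the conjugating enzymes Ube2h, Ube2o, Ube2b and Ube2c were also in this group. The fits that left out 1 library each called 18 genes of this list too.

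**Figure D3:**
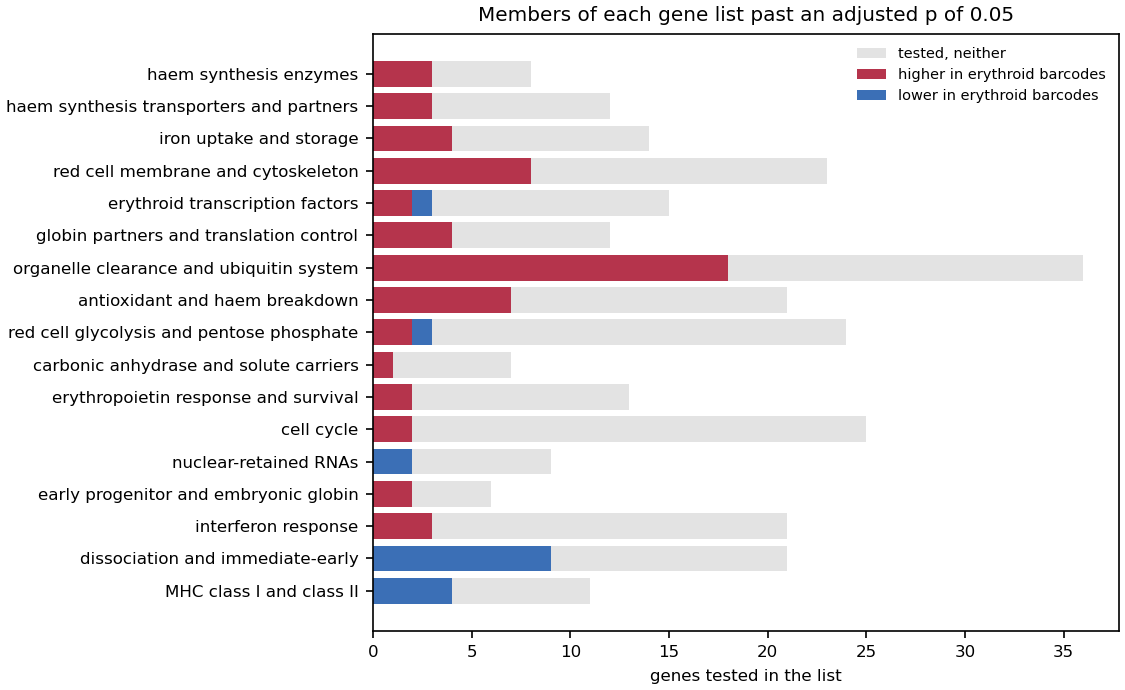
For each of 17 gene lists, the number of members tested (grey), higher (red) and lower (blue) in erythroid barcodes (x axis, genes) at an edgeR adjusted p under 0.05. Organelle clearance and the ubiquitin system has 18 of 36 higher, and the immediate-early list has 9 of 21 lower.

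Of 21 antioxidant and haem breakdown genes 7 were higher and none lower. Gpx1, a glutathione peroxidase, was the most abundant at 7451, 4370 and 7483 CPM against 1249, 587 and 1046 (log2 difference 3.10, edgeR adjusted p = 7.77e-84). Prdx2, the main peroxiredoxin of red cells, stood at 1478, 886 and 1336 against 178, 132 and 153. The others were Cat, Gclm, Txnrd2, Blvrb and Gstm5, of which Txnrd2 did not pass when any 1 library was left out and Gstm5 not without db/m. In glycolysis and the pentose phosphate path, Bpgm and Taldo1 were higher and Gpi1 lower among 24 tested. Gapdh stood at 439, 332 and 402 CPM against 473, 349 and 371 (edgeR adjusted p = 0.71). The Gpi1 call was lost without the db/db control library. Of 7 carbonic anhydrase and solute carrier genes only Car2 passed, at 500, 475 and 839 CPM against 362, 274 and 297, and Car1 had 0, 0 and 1 UMIs.

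Among globin partners and translation control, 4 of 12 tested were higher, among them Eif1, Hagh and Isg20, and none lower. Pabpc1, the poly(A)-binding protein, belongs to the enriched set and stood at 6497, 2859 and 4362 CPM against 136, 101.1 and 132. Other abundant members of that set were Oaz1, which restrains polyamine synthesis, at 5296, 2911 and 4586 against 331, 228 and 321, and Ucp2, a mitochondrial carrier, at 4819, 2071 and 3794 against 122, 121 and 153. Ybx3, a cold-shock protein that binds mRNA, stood at 947, 625 and 697 against 61.7, 53.4 and 66.5. Ribosomal protein genes held 2.31%, 1.83% and 1.96% of the summed non-globin UMIs, below the 2.91%, 2.03% and 2.34% of other barcodes. The median share per barcode went the other way, at 2.12%, 1.55% and 2.03% in erythroid barcodes against 1.46%, 1.26% and 1.11% in others.

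Of 25 cell cycle genes tested 2 were higher, Ube2c and Nusap1. Ube2c, which works with the anaphase-promoting complex, had 54, 32 and 37 UMIs. The division markers Mki67 and Top2a had 1, 1 and 0 and 0, 0 and 1 UMIs. Of progenitor genes the tested Kit had 0, 1 and 1 UMIs and Cd34 1, 1 and 0, and 2 of 6 tested members of that list passed, the theta globins Hbq1a and Hbq1b. Hbq1a gave 23, 12 and 18 UMIs in erythroid barcodes and 0 in all others, at least 1493-fold, 1090-fold and 2779-fold higher against a floor of 3 UMIs per library. Hbq1a and Hbq1b are near-copies, and their split is uncertain.

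Nuclear-retained RNAs were not absent. Malat1 stood at 31359, 36403 and 48300 CPM in erythroid barcodes and 56464, 57309 and 74026 in other barcodes. The difference did not pass the test (log2 difference -0.37, edgeR adjusted p = 0.46). It did pass, as lower, with library totals as the scaling and at globin shares of at least 20% and at least 50%. Of 9 such RNAs tested none was higher and 2 lower, Neat1 and Snhg11. Neat1 stood at 1255, 1133 and 1253 CPM against 2933, 1981 and 2883 (log2 difference -0.74, edgeR adjusted p = 0.00010). Neither passed without the db/m library, nor Snhg11 without the db/db control library. Immediate-early genes, which rise during tissue digestion, were lower for 9 of 21 tested: Fos, Jun, Junb, Egr1, Atf3, Dusp1, Zfp36, Klf2 and Klf6. Leaving out 1 library gave 7 or 8 lower genes, and DESeq2 called Fos, Junb and Zfp36 lower and Jund higher. Fos stood at 223, 195 and 603 CPM against 858, 567 and 999 (log2 difference -1.03, edgeR adjusted p = 1.36e-06). Of 11 genes of MHC classes I and II, 4 of class II were lower, H2-Aa, H2-Ab1, H2-Eb1 and Cd74, and none higher. Of 21 interferon response genes 3 were higher, Isg15, Irf7 and Rsad2, but without the db/m library only Rsad2 was. Irf7 had 13, 0 and 0 UMIs.

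The scaling bore on the lower calls of these lists more than on the higher ones. With library totals 3 membrane genes, 6 glycolysis genes, 12 immediate-early genes and 6 MHC genes were lower, in place of 0, 1, 9 and 4. The higher calls were 18 in organelle clearance, 8 in the membrane, 7 among antioxidant genes and 3 among haem enzymes under that scaling as well. Median-of-ratios factors added Hebp1 and Gpx4 to the higher genes, and Jund among the immediate-early genes.

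Proximal tubule transcripts were present in the erythroid barcodes at close to their level elsewhere. The 16 proximal tubule markers were all detected in every library, and their summed level was 1.09, 0.961 and 1.06 times that of other barcodes. Gpx3, a plasma glutathione peroxidase secreted by this segment, stood at 7420, 5171 and 6395 CPM against 5651, 4321 and 4174. Kap, the androgen-regulated kidney protein, stood at 5604, 39.1 and 307 CPM, and at 3687, 81.0 and 231 in other barcodes, so that it was high in db/m and low in db/db control in both kinds of barcode. Of the 16 markers 5 passed the test as higher, among them Kap, Gpx3, Ttc36 and Ass1, but no proximal tubule marker did without the db/m library, and with library totals as the scaling Gpx3 alone was higher and Slc34a1 and Slc5a12 were lower. Thick ascending limb markers summed to 0.676, 0.836 and 0.742 of the level in other barcodes and distal convoluted tubule markers to 0.643, 0.772 and 0.824, with none of the 14 past the test.

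Markers of other cells gave fewer UMIs, at levels that differed between libraries. The 8 connecting tubule and principal cell markers summed to 0.321, 0.422 and 0.194 of the other barcodes' level, with Aqp2, Aqp3, Hsd11b2 and Fxyd4 lower by the test. Intercalated cell markers had 6, 13 and 19 UMIs, which was 0.150, 0.210 and 0.968 of the other barcodes' level, so that in db/db fructose they were close to it. Endothelial markers had 60, 78 and 10 UMIs, 0.593, 0.583 and 0.0978 of that level. Podocyte markers had 12, 10 and 5 UMIs, 0.263, 0.539 and 0.348 of that level, with Nphs1 at 0 throughout. Of these lists Atp6v1g3, Slc4a9 and Emcn were lower by the test, though each lost its call in at least 1 fit that left out a library. Macrophage markers had 4, 11 and 2 UMIs, 0.130, 0.243 and 0.0632 of the other barcodes' level, and C1qa, C1qb, C1qc, Csf1r, Adgre1 and Cd68 were at 0 in all 3 libraries. Of 11 macrophage markers tested C1qa, C1qb, C1qc and Lyz2 were lower, and only Lyz2 without the db/db control library. Pericyte and smooth muscle markers had 4, 12 and 3 UMIs, fibroblast markers 0, 1 and 0, lymphocyte markers 2, 2 and 0, neutrophil markers 0, 1 and 0 and platelet markers 1, 2 and 0. What part free RNA from lysed kidney cells had in the erythroid profile was not tested. The other barcodes' profile was also subtracted gene by gene, scaled to the proximal tubule markers (1.09, 0.961 and 1.06 times), with values below 0 set to 0. The remaining counts equalled 24.0%, 21.2% and 27.0% of the non-globin UMIs. At these scales the subtracted total was close to the whole non-globin total, so the percentages do not measure the cells' own RNA.

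**Figure D4:**
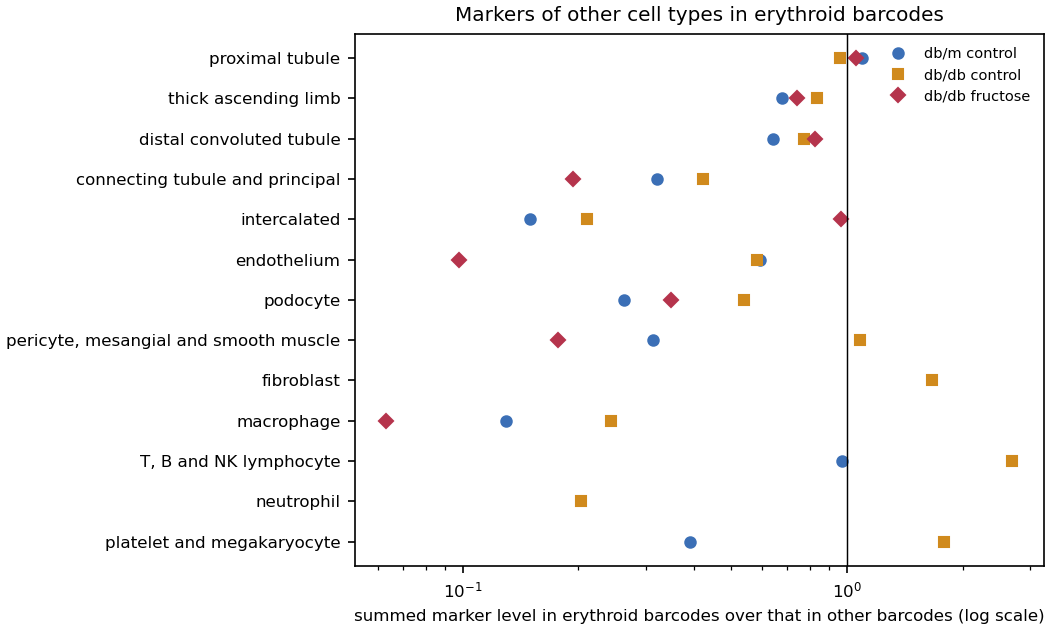
Summed level of each marker list in erythroid barcodes over that in other barcodes of the same library (x axis, log scale), with 1 symbol per library; lists with 0 UMIs in a library have no symbol there. Proximal tubule markers lie at 1.09, 0.961 and 1.06, and macrophage markers at 0.130, 0.243 and 0.0632; the podocyte, pericyte, fibroblast, macrophage, lymphocyte, neutrophil and platelet lists rest on 12 or fewer UMIs in each library.

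Within the erythroid barcodes Alas2 was higher and Malat1 lower where the globin share was higher. From 10 to 20% globin there were 15, 22 and 7 barcodes, from 20 to 50% there were 51, 66 and 56, and from 50% upward 59, 18 and 25. Alas2 went over these ranges from 2721 through 12578 to 34184 CPM in db/m. It went from 3432 through 10545 to 26894 in db/db control, and from 1159 through 10965 to 32978 in db/db fructose. Genes detected went the other way, from a median of 668 through 378 to 324 in db/m, 693.5 through 440 to 292 in db/db control and 413 through 358.5 to 298 in db/db fructose. Malat1 went from 63800 CPM in the lowest range to 22286 in the highest in db/m, from 44731 to 20388 in db/db control and from 80242 to 21875 in db/db fructose. The summed proximal tubule markers did not follow the globin share in 1 direction. Over the 3 ranges db/m gave 19174, 28979 and 25584 CPM, the db/db control library 14012, 14131 and 12941, and the fructose library 20222, 20908 and 15060. These are descriptions with no test, since globin chose the barcodes and its share enters each range.

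Between libraries, the erythroid transcripts differed together. All 31 erythroid-enriched genes were lower in db/db control than in db/m, by a log2 ratio of -0.89 for their sum and from -1.27 to -0.01 for single genes, and the 95% counting interval of 29 lay below 0. The median over all 766 genes with at least 20 UMIs in either library was -0.18. Of the 10 erythroid marker genes so measured, 1 was at least 2-fold lower and none higher, beside 13.3% and 8.88% of all 766. In db/db fructose over db/db control all 31 were higher, by 0.64 for the sum and from 0.12 to 1.45 singly. There 2 of 10 erythroid markers were at least 2-fold higher and none lower, beside 7.18% and 5.28% of 682 genes and a median of 0.14. In db/db fructose over db/m the sum was at -0.25, with 25 genes lower and 6 higher, and 1 of 10 markers was at least 2-fold higher and none lower, beside 8.79% and 11.3% of 626 genes. The comparisons share libraries and are not independent of each other.

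Values that moved with this pattern stand beside it. The globin share was lowest in db/db control as well, and the erythroid-enriched set gave 113, 99.4 and 105 UMIs per 1000 globin UMIs. Per barcode the set gave 91.2, 68.8 and 71.1 UMIs and the globins 804, 692 and 676, while the non-globin total was 1039, 1449 and 961. Mitochondrial genes held 22.95%, 31.9% and 19.7% of the non-globin UMIs, and 18.3%, 25.7% and 13.5% in other barcodes. Among barcodes with at least 50% globin the summed erythroid markers differed by a log2 ratio of -0.28 between db/db control and db/m, in place of -0.85 over all erythroid barcodes. For db/db fructose over db/m it was 0.05 in place of -0.23. On the scale of the erythroid-enriched set itself, chosen after the data had been seen, the markers' ratios were 0.04, -0.03 and 0.01 in the 3 comparisons, and the median of all genes was 0.71, -0.50 and 0.11. The part of the different globin and mitochondrial shares in the pattern was not tested.

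**Figure D5:**
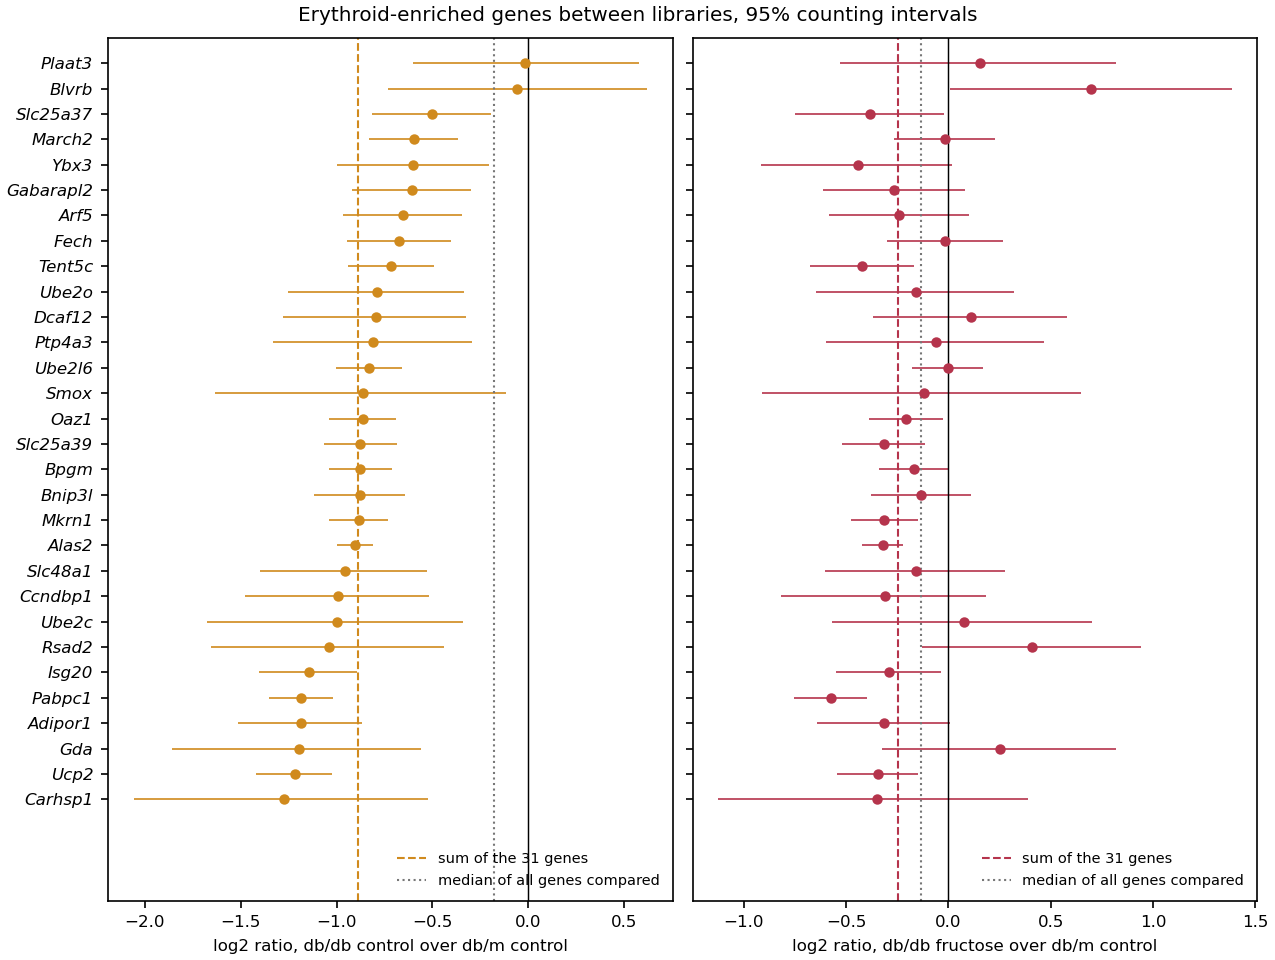
Log2 ratio of 30 of the 31 erythroid-enriched genes between erythroid barcodes of 2 libraries (x axis), db/db control over db/m on the left and db/db fructose over db/m on the right, with 95% counting intervals; dashed lines mark the sum of the 31 genes and dotted lines the median of all genes compared. On the left all 30 points lie below 0 and most near the dashed line at -0.89.

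Some genes left the common shift. Apol11b, a member of the apolipoprotein L family, had 118, 18 and 66 UMIs in the erythroid barcodes and 1, 1 and 3 in all other barcodes. The UMIs came from 39 of 125, 12 of 106 and 22 of 88 barcodes, with at most 12, 3 and 10 in 1 barcode. Its level of 908, 117 and 780 CPM gave a log2 ratio of db/db control over db/m of -2.95 (95% counting interval -3.76 to -2.23). The ratio was 2.73 (1.97 to 3.57) for db/db fructose over db/db control and -0.22 (-0.68 to 0.23) for db/db fructose over db/m. On the scale of the erythroid-enriched set the first ratio was -2.07 and the second 2.10. The db/db control library alone was low.

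Blvrb, a biliverdin reductase, had 37, 42 and 39 UMIs and a ratio of db/db control over db/m of -0.06 (-0.73 to 0.62), and Plaat3, a phospholipase, had 47, 55 and 34 and a ratio of -0.01 (-0.60 to 0.58). These 2 genes, Slc25a37 and March2 had intervals wholly above the ratio of the set's sum, and Isg20, Pabpc1 and Ucp2 intervals wholly below it. For db/db fructose over db/db control, Gda, Rsad2 and Ucp2 had intervals wholly above that of the sum, and Tent5c and Slc25a37 wholly below. Prxl2a, a peroxiredoxin-like protein, had 28, 58 and 40 UMIs and was higher in both db/db libraries than in db/m, by 0.81 (0.14 to 1.51) and 1.13 (0.40 to 1.88).

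Among genes named by their ratios, several with modest counts followed the direction of the set. Phospho1, a phosphatase of phosphocholine, had 34, 15 and 13 UMIs from 25, 12 and 9 barcodes and a ratio of -1.42 (-2.40 to -0.51) in db/db control relative to db/m. E2f2 had 23, 9 and 17 UMIs from 19, 6 and 13 barcodes and a ratio of -1.59 (-2.89 to -0.43) in db/db control relative to db/m. Fam210b had 26, 9 and 11 UMIs from 18, 7 and 8 barcodes and a ratio of -1.77 (-3.05 to -0.63) in db/db control relative to db/m. Rsad2, an antiviral enzyme induced by interferon, had 66, 38 and 57 UMIs from 31, 21 and 19 barcodes, with ratios of -1.04 (-1.65 to -0.44) and, between the db/db libraries, 1.45 (0.83 to 2.08). The intervals of Phospho1, E2f2, Fam210b and Rsad2 for db/db control relative to db/m held the ratio of the set's sum. Between the db/db libraries the Rsad2 interval lay wholly above the set's ratio of 0.64. For db/db fructose relative to db/m its ratio was 0.41 (-0.13 to 0.94), wholly above the set's -0.25 and opposite in sign.

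A few were highest in db/db fructose. Ypel5, a small conserved zinc-binding protein, had 15, 23 and 23 UMIs, with at most 3 in 1 barcode, and a ratio over db/m of 1.24 (0.23 to 2.28). Ube2h had 35, 42 and 38 UMIs from 25, 34 and 21 barcodes and a ratio of 0.74 (0.04 to 1.44). Car2, carbonic anhydrase 2, which kidney tubule cells also express, had 65, 73 and 71 UMIs and a ratio of 0.75 (0.24 to 1.25), with 10, 17 and 19 of them in 1 barcode each.

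Other large ratios rested on single barcodes. Isg15, a ubiquitin-like protein induced by interferon, had 34, 2 and 5 UMIs, and 22 of the 34 came from 1 db/m barcode. Its ratio of db/db control over db/m was -4.33 on the log2 scale (-7.43 to -2.36), with 12 UMIs left in db/m without that barcode. Slc4a1, the anion exchanger band 3 of red cells and of acid-secreting intercalated cells, had 14, 21 and 30 UMIs. Its log2 ratio for db/db fructose over db/m was 1.72 (0.76 to 2.75), with 11 of the 30 from 1 barcode and 19 left without it. Intercalated markers had 6, 13 and 19 UMIs, and their part was not tested. Ccn2, a matricellular growth factor, had 2, 24 and 4 UMIs, of which 16 of the 24 came from 1 db/db control barcode.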

How the data were processed

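The files deposited by the authors hold raw UMI counts for each gene in each barcode, and the submitters' processing notes name Cell Ranger 6.0.0 and the mm10 build. They cover 32285 genes, with 31660184 UMIs in db/m, 52704335 in db/db control and 42028885 in db/db fructose. Members and gene lists were chosen with earlier results of these data known. Doublets were not removed. No annotation of cells was used.

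Non-globin counts were summed per library over erythroid and over other kept barcodes (6 sums) and fitted in R 4.3.3 with edgeR 4.0.16 (filterByExpr, TMM, glmQLFit and glmQLFTest, library as a block, Benjamini-Hochberg adjustment, threshold 0.05). DESeq2 1.42.0 was an alternative. The libraries differ in genotype and diet, which enters the spread. Counts were also simulated from 1 profile shared by all libraries, with 1 fixed dispersion and with changes in abundant genes only. Of genes made 4-fold and 2-fold higher, 50 of 50 and 26 of 50 were called. Of genes made 4-fold and 2-fold lower, 46 of 50 and 20 of 50 were called, with 7 false calls of 13995 genes. The simulation held no differences between libraries, so these rates do not carry over to the real counts. Libraries were compared by counts per 1000000 non-globin UMIs (CPM) with exact conditional binomial 95% intervals; a call meant at least 2-fold with at least 20 UMIs in the higher library. A sum of 0 was set to 3 UMIs in level ratios. Intervals cover counting error only.

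Genes named are members of 17 gene lists and 14 marker lists (up to 4 per list by counts, and every erythroid and haem gene), the 12 highest past the test with at least 100 CPM in every library, and the 8 highest and lowest ratios per pair of libraries. The ratios were ranked among non-globin genes with at least 20 UMIs in the higher library. In that library the erythroid level had to be at least 2-fold that in other barcodes. Other members named, the ratio intervals against the set's sum and the counts per barcode were chosen after their values were seen. Of the listed symbols, Ahsp, Aldoa, Slc66a2 and Hbb-bh0 were not matched and were not analysed here. Marchf2, Marchf8 and Bim are other names of March2, March8 and Bcl2l11, which the lists hold under those names. Positions come from GENCODE M21 by gene identifier (121 of 121 matched), promoters from RefSeq by symbol. Some genes are not reported here.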

Additional observations from a re-analysis of the deposited data

Results flagged for a closer look

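Barcodes with at least 10% globin also occurred outside the filters, and no comparison used them: 4 in the db/m library, 4 in the db/db control library and 7 in the db/db fructose library. They failed on fewer than 200 genes in 1, 0 and 3 cases and on more than 50% mitochondrial UMIs in 4, 4 and 4 cases, with 1 barcode failing both in db/m.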

How the results depend on the processing

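The summed marker ratio of db/db fructose over db/m changed sign at 50% globin, with at least 500 genes and on the scale of the enriched set, and the other 2 summed ratios on that scale only. Of the settings, the scale of the erythroid-enriched set and the threshold of 30% globin were chosen after seeing the data. The cause of each difference below was not tested. A stricter rule leaves fewer barcodes, and the part of that was not tested either.

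The share of erythroid barcodes at 50% globin or more became 0.524% in db/m, 0.0848% in db/db control and 0.129% in db/db fructose, and 0.286%, 0.256% and 0.116% with at least 500 genes, where the db/m and db/db control intervals overlapped. In db/db control it was 0.396% at 20% globin and 0.643% with at most 30% mitochondrial UMIs, where fewer barcodes were kept.

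The 213 genes higher and 102 lower became 128 and 54 at 50% globin, and 88 and 31 with at least 500 genes. DESeq2 gave 206 and 17, library totals 169 and 568, median-of-ratios factors 247 and 61, and the fit with no replicate block (no library term, which ignores the pairing of 2 sums per library) 143 and 11. Without that block 1 immediate-early gene was lower in place of 9 and no proximal tubule marker was higher in place of 5. Leaving out 1 library gave 148 to 202 higher and 54 to 60 lower.

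The summed erythroid marker ratio of db/db control over db/m, -0.85, became -0.72, -0.53 and -0.28 at 20%, 30% and 50% globin, -0.41 with at least 500 genes and -0.72 with at most 30% mitochondrial UMIs. It became -0.67 with mitochondrial UMIs left out of the total, -0.52 with median-of-ratios factors, -0.67 with the other barcodes' profile subtracted and 0.039 on the scale of the enriched set. That of db/db fructose over db/db control, 0.61, became in the same order 0.36, 0.18, 0.34, 0.71, 0.45, 0.37, 0.25, 0.27 and -0.028. That of db/db fructose over db/m, -0.23, became -0.37, -0.35 and 0.055 at 20%, 30% and 50% globin, 0.30 with at least 500 genes, -0.40 with the other barcodes' profile subtracted and 0.012 on the scale of the enriched set. With at least 500 genes the ratio of db/db control over db/m turned to 0.056 for E2f2, and Isg15 turned to 0.45 for db/db fructose over db/m.

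The mitochondrial share in db/m, 22.95%, became 23.6%, 22.6%, 21.5% and 18.3% at 5%, 20%, 30% and 50% globin, 19.2% with at least 500 genes and 20.5% with at most 30% mitochondrial UMIs. In db/db control, 31.9%, it became 33.0%, 31.5% and 28.4% at 20%, 30% and 50% globin, 28.6%, 26.9%, and 32.6% with barcodes thinned to 200 UMIs. In db/db fructose, 19.7%, it became 18.9% and 17.3% at 30% and 50% globin, 14.5%, 17.2% and 21.1%. Of the remaining results for named genes, 487 moved by less than their counting interval and 58 by more. With 88 to 125 barcodes per library, genes under 20 UMIs gave no ratio.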
